A study of Homo sapiens with 3 samples.

Results

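GDF15-high cells were the 574 cells with the most GDF15 mRNA among 5737 pigmented induced melanocytes kept from the day 44 (D44) library, which held 8010 of the 22522 barcodes of the study. A barcode was kept when mitochondrial genes made up under 10% of its UMIs (unique molecular identifiers, which count captured mRNA molecules), when it had 3000 to 9000 genes and under 100000 UMIs, and when PMEL, MLANA, DCT and TYRP1 together reached 10 UMIs per 10000. Members were selected on GDF15 UMIs per 10000 of the cell, as the highest 10% of kept cells. They were set against the 2869 GDF15-low cells, the lowest 50% of the same ranking. GDF15 itself, and every difference between these groups in D44, were therefore used or touched by the choice of cells, and D44 is 1 library, so D44 values are a description with no test.

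The study took induced melanocytes at D23, D32 and D44 of their differentiation from human pluripotent stem cells, through embryoid bodies and a melanocyte medium with conditioned medium of L-Wnt3a cells, and profiled them with droplet single-cell RNA sequencing. Each day is 1 library, and the labels name no genotype or treatment that differs between days. The melanocyte medium also held stem cell factor, endothelin-3, cholera toxin, the phorbol ester TPA, dexamethasone and bFGF. After embryoid bodies were plated, cells were passaged in that medium with serum and without TPA. Which medium each day had is not in the sample titles. The titles name induced pluripotent stem cells as the source, and the cell line field names H9, an embryonic stem cell line, so the starting line cannot be settled from the labels. By the study's methods, 1 induction and 1 sequencing run gave both D32 and D44 while D23 came from another, so day and batch cannot be told apart between D23 and the other libraries. Cells had been frozen before libraries were made. The same rule applied to D23 and D32 gave 210 GDF15-high and 1477 GDF15-low cells in D23, and 562 GDF15-high and 3079 GDF15-low cells in D32. There every GDF15-low cell had no GDF15 UMI. Ties at 0 made the GDF15-low group 70.4% of kept cells in D23 and 54.8% in D32. GDF15-high cells of those days had a median of 3 GDF15 UMIs in D23 and 9 in D32, with a minimum of 2 in each, so the groups were split at low counts.

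GDF15 is a secreted cytokine of the TGF-β family, and its gene is switched on by DNA damage and is a target of ATF4 and CHOP (DDIT3), the transcription factors of the integrated stress response. Its receptor, GFRAL, works with RET and is known from neurons of the hindbrain. Melanocytes make melanin in organelles called melanosomes with the enzymes TYR, TYRP1 and DCT on fibrils of PMEL, under the transcription factor MITF.

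The promoters of 4 genes that carry the results below are given as the 250 bases before the RefSeq start of the gene on GRCh38.p14, 5′ to 3′ on the strand of the gene. They are shown because they belong to the chosen gene, to an ATF4 target and to 2 genes of dividing cells. Capitals mark a motif: CCAAT for GDF15 (chr19:18385908-18386157, plus strand, read on the other strand from base -103 to -99 before the start), the ATF4 element TGATGNAA for CHAC1 (chr15:40953221-40953470, plus strand, read on the other strand from -209 to -202), and the cell cycle element TTTGAA for TOP2A (chr17:40417897-40418146, minus strand, from -194 to -189 and, on the other strand, from -151 to -146) and PLK1 (chr16:23678639-23678888, plus strand, from -29 to -24).
GDF15: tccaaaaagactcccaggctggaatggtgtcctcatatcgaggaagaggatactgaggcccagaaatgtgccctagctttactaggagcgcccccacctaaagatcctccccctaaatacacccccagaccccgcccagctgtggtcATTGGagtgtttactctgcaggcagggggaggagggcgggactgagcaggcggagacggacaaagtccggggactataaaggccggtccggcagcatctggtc
CHAC1: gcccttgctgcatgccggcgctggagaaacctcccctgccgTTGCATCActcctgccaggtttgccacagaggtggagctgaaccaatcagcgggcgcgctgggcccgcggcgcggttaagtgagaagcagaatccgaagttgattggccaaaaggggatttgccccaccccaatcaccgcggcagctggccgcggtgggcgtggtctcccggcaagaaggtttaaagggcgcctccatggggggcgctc
TOP2A: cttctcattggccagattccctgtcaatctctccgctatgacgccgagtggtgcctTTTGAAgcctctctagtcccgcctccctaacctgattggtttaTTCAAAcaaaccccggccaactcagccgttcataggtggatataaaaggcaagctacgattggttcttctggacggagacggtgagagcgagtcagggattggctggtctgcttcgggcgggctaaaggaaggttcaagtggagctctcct
PLK1: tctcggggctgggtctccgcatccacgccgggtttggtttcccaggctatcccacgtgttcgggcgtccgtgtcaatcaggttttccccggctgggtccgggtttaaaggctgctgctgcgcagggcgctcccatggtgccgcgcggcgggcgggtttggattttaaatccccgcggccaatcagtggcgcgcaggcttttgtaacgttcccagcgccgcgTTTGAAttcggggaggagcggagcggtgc
A match is a description of letters and not a binding site.

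GDF15 (ENSG00000130513, chr19:18374731-18389176 in GENCODE 44 on GRCh38) had a median of 36 UMIs in GDF15-high cells and of 1 in GDF15-low cells. Per 10000 UMIs the median was 7.50 in GDF15-high cells, with a range of 5.32 to 34.6, and 0.27 in GDF15-low cells. The level ran on without a gap at the limit: the lowest members had 5.32 and 5.33 UMIs per 10000 and the highest cells outside had 5.31 each, and 208 cells lay within 10% of the limit. This ranking cannot show whether the 574 members are a type of cell of their own. They held 42.5% of the GDF15 UMIs of all kept cells, 23898 of 56234, and the GDF15-low cells held 7.995%. In the same ranking 1087 kept cells (18.9%) had no GDF15 UMI.

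Across all kept cells GDF15 stood at 37.9 CPM (UMIs of a gene per 1000000 UMIs) in D23, 46.7 CPM in D32 and 213 CPM in D44, with an exact Poisson 95% interval of 212 to 215 CPM in D44. With 1 library a day this difference had no replicate check. The same order held when each cell was thinned to 5000 UMIs: 14.6% of kept cells had a GDF15 UMI in D23, 16.0% in D32 and 45.5% in D44. Unthinned shares were 29.6%, 45.2% and 81.1% in D23, D32 and D44, with median depths of 13454.5, 36810 and 42965 UMIs. Cells that passed the other limits but had fewer pigment UMIs also held GDF15, with a UMI in 11.1%, 12.1% and 30.7% of them after thinning in D23, D32 and D44. The 75 such cells of D44 gave a wide exact binomial 95% interval, 20.5% to 42.4%, against 44.2% to 46.8% for kept cells. How much of either share comes from free RNA was not tested. The least GDF15 that made a cell a member was 1.24 per 10000 in D23 and 1.37 in D32, so the D44 members were higher on the scale than those of the other days.

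**Figure D1:**
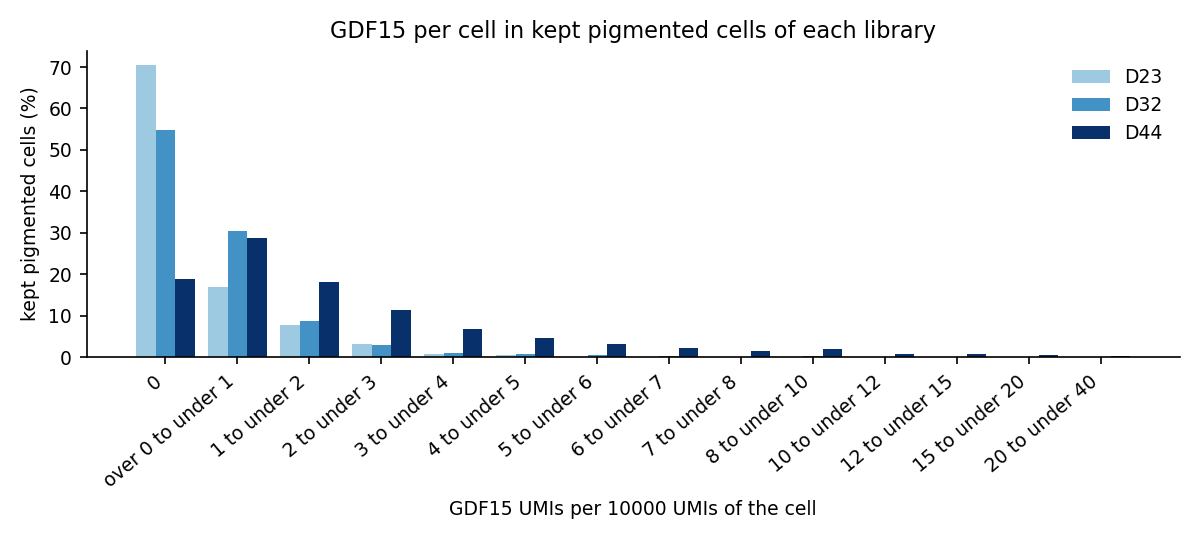
GDF15 UMIs per 10000 UMIs of a cell (x axis) against the share of kept pigmented cells in percent (y axis) in D23, D32 and D44, drawn as bars in ranges of level for D23, D32 and D44. Cells with no GDF15 UMI make up 70.4% of D23, 54.8% of D32 and 18.9% of D44, and the D44 bars fall off without a gap around 5.32, where the members start.

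GDF15-high cells were well-measured cells by the usual signs. Their median was 43904.5 UMIs, against 41929 in GDF15-low cells, and the median number of genes was 6441.5, against 6420. Mitochondrial genes took a median of 4.60% of UMIs in GDF15-high and 4.87% in GDF15-low cells. Scrublet called 9.23% of GDF15-high and 7.95% of GDF15-low cells as doublets, and these were kept. The 3 libraries shared few barcode sequences: 16 between D23 and D32, 9 between D23 and D44 and 28 between D32 and D44.

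Pigment genes of the rule were high by choice. The 5 melanocyte markers that the rule had not used (TYR, MITF, SOX10, SLC45A2 and TRPM1) were also detected in both groups. TRPM1, a cation channel, had 387 CPM in GDF15-high and 364 CPM in GDF15-low cells, and SLC45A2, a melanosome transporter, had 14.4 CPM in GDF15-high and 13.6 CPM in GDF15-low cells. The other 3 are given further on. Markers of other cells were low. The 8 mesenchymal markers summed to 55.9 CPM in GDF15-high and 66.9 CPM in GDF15-low cells, with 1 of them at 0 in GDF15-high and 0 at 0 in GDF15-low cells. The 7 neural markers gave 23.3 CPM in GDF15-high and 21.5 CPM in GDF15-low cells with 2 at 0 in each group, and the 4 keratinocyte markers gave 0.0731 CPM in GDF15-high and 0.0469 CPM in GDF15-low cells. Pluripotent markers were all at 0 in GDF15-high cells and at 0.00782 CPM in GDF15-low cells, and the 3 leukocyte markers summed to 27.8 CPM in GDF15-high and 24.7 CPM in GDF15-low cells. Schwann cell markers, which melanocytes share in part, summed to 783 CPM in GDF15-high and 858 CPM in GDF15-low cells. The endothelial list summed to 46.1 CPM in GDF15-high and 30.1 CPM in GDF15-low cells, nearly all of it from KDR, which rose by edgeR in the earlier days (adjusted p = 5.88e-22), while PECAM1 and CDH5 were at 0 in GDF15-high cells. Of the heat shock list none of 14 genes, and of the unfolded protein response list of the endoplasmic reticulum none of 20, lay past 1.5-fold in D44. Over all genes only 0.560% were higher and 1.45% lower past that fold, so such counts in short lists say little about them.

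Across all other genes with a mean of at least 5 CPM in the 2 D44 groups, 54 of 9641 (0.560%) were higher by over 1.5-fold in GDF15-high cells and 140 (1.45%) were lower. Whether the same genes differed between GDF15-high and GDF15-low cells of the earlier days was tested with edgeR's quasi-likelihood test on UMIs summed per library and group, with the library as a term and Benjamini-Hochberg adjustment over all 14561 genes. That test called 386 genes higher (2.65%) and 488 lower (3.35%) in GDF15-high cells of D23 and D32. DESeq2 on the same sums called 67 higher (0.460%) and 122 lower (0.838%). Of the 54 genes higher in D44, 52 were tested in the earlier days, 36 rose, none fell, and DESeq2 called 19. Of the 140 lower genes 112 fell by edgeR and 73 by DESeq2. Since these tests use D23 and D32 cells alone, they are not the D44 values repeated, but they rest on 2 libraries and on a spread pooled over all genes, which makes the p-values very small. They measure that pooled spread and not each gene's own spread between D23 and D32, and the cells of 1 library are not replicates. Of the 386 genes called higher, 350 had that direction in both D23 and D32, and of the 488 called lower, 476 did. Scaling by total UMIs instead of TMM gave 299 genes higher and 591 lower, and RLE scaling gave 492 and 453. Without a library term edgeR called 0 genes in either direction, with 78 at an unadjusted p under 0.05. Leaving D23 out and D44 in gave 899 higher and 900 lower, a result that uses the library of the rule.

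Below, levels with no day named are those of D44, and values of edgeR and DESeq2 are those of D23 and D32. A gene that passed edgeR and not DESeq2 has its DESeq2 adjusted p beside it, or is said to have none. The first list holds genes that DNA damage switches on. Of its 26 genes measured in D44, 6 lay past 1.5-fold and all 6 were higher in GDF15-high cells, and the median log2 ratio was 0.38, against -0.04 over all genes. In D23 and D32, edgeR called 16 of 29 higher and none lower, and DESeq2 called 8. CDKN1A (ENSG00000124762, chr6:36676460-36687337), which makes p21 and stops the cell cycle, had 78.2 CPM in GDF15-high and 28.1 CPM in GDF15-low cells of D44, a 2.79-fold difference (log2 1.48, Poisson interval 1.40 to 1.56). It had 83.2 CPM in GDF15-high and 39.1 CPM in GDF15-low cells of D23, and 47.1 CPM in GDF15-high and 19.03 CPM in GDF15-low cells of D32 and rose by edgeR (log2 fold change 1.26, SE 0.068, adjusted p = 2.46e-72, DESeq2 adjusted p = 1.56e-19). GDF15-high cells were above GDF15-low cells in all 3 libraries, and 67.9% of D44 members had a CDKN1A UMI, against 43.6% of GDF15-low cells.

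MDM2, an E3 ubiquitin ligase, had 84.3 CPM in GDF15-high and 53.9 CPM in GDF15-low cells in D44, 127 CPM in GDF15-high and 73.2 CPM in GDF15-low cells of D23, and 79.8 CPM in GDF15-high and 52.9 CPM in GDF15-low cells of D32, and rose by edgeR (log2 0.69, adjusted p = 2.87e-28). AEN, a nuclease of apoptosis, had 17.9 CPM in GDF15-high and 10.98 CPM in GDF15-low cells and rose by edgeR in the earlier libraries (log2 0.69, adjusted p = 1.01e-06, DESeq2 adjusted p = 0.312). PLK3, a stress-activated polo-like kinase, had 11.6 CPM in GDF15-high and 4.96 CPM in GDF15-low cells (log2 1.23) and also rose (edgeR log2 1.03, adjusted p = 3.22e-06, no adjusted p from DESeq2). The last 2 of the 6 were BBC3, a BH3-only killer protein, at 29.2 CPM in GDF15-high and 19.4 CPM in GDF15-low cells (edgeR adjusted p = 3.41e-05, DESeq2 adjusted p = 0.135), and FDXR, a mitochondrial reductase, at 23.1 CPM in GDF15-high and 15.02 CPM in GDF15-low cells (edgeR adjusted p = 0.282, not past the threshold). These 6 were the genes past 1.5-fold, and each had more RNA in GDF15-high cells.

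Smaller differences ran through the rest of the list. PHLDA3, an inhibitor of AKT, had 46.7 CPM in GDF15-high and 32.02 CPM in GDF15-low cells, and TIGAR, a fructose bisphosphatase, had 91.1 CPM in GDF15-high and 64.7 CPM in GDF15-low cells. RPS27L, a paralog of a ribosomal protein, had 707 CPM in GDF15-high and 542 CPM in GDF15-low cells and rose by edgeR (log2 0.36, adjusted p = 2.06e-26). TNFRSF10B, a death receptor that CHOP also induces, had 39.97 CPM in GDF15-high and 29.6 CPM in GDF15-low cells and rose too (edgeR adjusted p = 1.60e-08). CCNG1, cyclin G1, had 158 CPM in GDF15-high and 165 CPM in GDF15-low cells with an edgeR adjusted p of 0.960. BAX, a pore-forming protein of apoptosis, had 221 CPM in GDF15-high and 191 CPM in GDF15-low cells.

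Of the 24 ATF4 and CHOP targets measured in D44, 21 had a log2 ratio above 0, against 3634 of 9641 over all genes. Of the 24, 5 lay past 1.5-fold and all 5 were higher in GDF15-high cells, with a median log2 ratio of 0.28. The same 24 genes had smaller medians in the earlier libraries, 0.08 in D23 and 0.05 in D32. In D23 and D32 edgeR called 7 of 24 higher and 1 lower, and DESeq2 called 2 higher and 0 lower. CHAC1, which breaks down glutathione, had 10.6 CPM in GDF15-high and 2.37 CPM in GDF15-low cells in D44 (log2 2.17, interval 1.93 to 2.40), and rose in the earlier libraries with 7.81 CPM in GDF15-high and 3.52 CPM in GDF15-low cells of D23, and 7.05 CPM in GDF15-high and 3.46 CPM in GDF15-low cells of D32 (edgeR log2 1.07, adjusted p = 5.51e-07, no adjusted p from DESeq2). A CHAC1 UMI was seen in 20.4% of GDF15-high and 6.76% of GDF15-low cells, and 10 cells held 32.0% of the CHAC1 UMIs of the members. CEBPB, a bZIP transcription factor, had 80.5 CPM in GDF15-high and 46.99 CPM in GDF15-low cells and rose by edgeR (log2 0.59, adjusted p = 7.84e-17). TRIB3, a pseudokinase that damps the response, had 22.1 CPM in GDF15-high and 14.3 CPM in GDF15-low cells (edgeR adjusted p = 0.00574, DESeq2 adjusted p = 0.790).

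The other 2 of the 5 differed between libraries. NUPR1, a small stress-induced chromatin protein, had 17.7 CPM in GDF15-high and 3.62 CPM in GDF15-low cells in D44 (log2 2.29), but only 0 CPM in GDF15-high and 0.0476 CPM in GDF15-low cells of D23, and 0.327 CPM in GDF15-high and 0.187 CPM in GDF15-low cells of D32, too few for the test. In D44 its UMIs lay in 70 members (12.2%), and 10 cells held 52.8% of them. SLC7A11, the cystine and glutamate exchanger, had 36.02 CPM in GDF15-high and 23.7 CPM in GDF15-low cells in D44, but 26.8 CPM in GDF15-high and 26.7 CPM in GDF15-low cells of D23, and 18.6 CPM in GDF15-high and 19.2 CPM in GDF15-low cells of D32 (edgeR log2 -0.01, adjusted p = 0.987). ATF4 mRNA followed the same course, with 81.5 CPM in GDF15-high and 63.1 CPM in GDF15-low cells in D44 and 55.7 CPM in GDF15-high and 52.2 CPM in GDF15-low cells of D23, and 52.9 CPM in GDF15-high and 55.7 CPM in GDF15-low cells of D32 (edgeR adjusted p = 0.987), as did PSAT1, a serine synthesis enzyme, with 112 CPM in GDF15-high and 86.3 CPM in GDF15-low cells in D44 and an edgeR adjusted p of 0.872. SLC7A11, ATF4 and PSAT1 were higher in GDF15-high cells in D44, and the difference from the earlier libraries was not tested.

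Among further genes of this list the D44 differences were smaller. DDIT3 (CHOP) had 27.1 CPM in GDF15-high and 22.4 CPM in GDF15-low cells (edgeR adjusted p = 0.406). PPP1R15A, the phosphatase subunit that ends the response, had 61.7 CPM in GDF15-high and 53.7 CPM in GDF15-low cells and rose by edgeR (log2 0.39, adjusted p = 5.10e-06, DESeq2 adjusted p = 0.0931). SLC3A2, the chain that SLC7A11 pairs with, had 960.1 CPM in GDF15-high and 816 CPM in GDF15-low cells and rose by a log2 of 0.12 (edgeR adjusted p = 0.0106, DESeq2 adjusted p = 0.237), while SLC38A2, an amino acid transporter, had 66.9 CPM in GDF15-high and 87.7 CPM in GDF15-low cells and was the list's 1 gene that fell (edgeR log2 -0.19, adjusted p = 7.20e-04, DESeq2 adjusted p = 0.488). The tRNA synthetase list had a median log2 of 0.18 in D44 with 18 of 20 genes above 0 and none past 1.5-fold, for example GARS at 92.7 CPM in GDF15-high and 69.4 CPM in GDF15-low cells and WARS at 72.2 CPM in GDF15-high and 52.4 CPM in GDF15-low cells. The serine and one-carbon list had a median of 0.23 in D44, with 9 of 12 above 0 and none past 1.5-fold or called by edgeR. In D23 and D32 the same serine and one-carbon genes had medians below 0, at -0.11 and -0.08. The tRNA synthetases had medians of 0.07 in D23 and 0.02 in D32. Over all genes 3634 of 9641 were above 0 in D44. HSPA5, the chaperone that marks the unfolded protein response, had 381 CPM in GDF15-high and 393 CPM in GDF15-low cells, and HSPA1A, a heat shock protein, 60.8 CPM in GDF15-high and 80.3 CPM in GDF15-low cells (edgeR adjusted p = 0.637). Of 13 mitochondrial chaperones and proteases none lay past 1.5-fold, and the median was 0.10. The ATF4 element was in a promoter window of 11 of the 27 matched ATF4 list genes (40.7%), against 4.46% of all RefSeq genes and 4 of the 39 matched genes higher in D44 (10.3%).

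**Figure D2:**
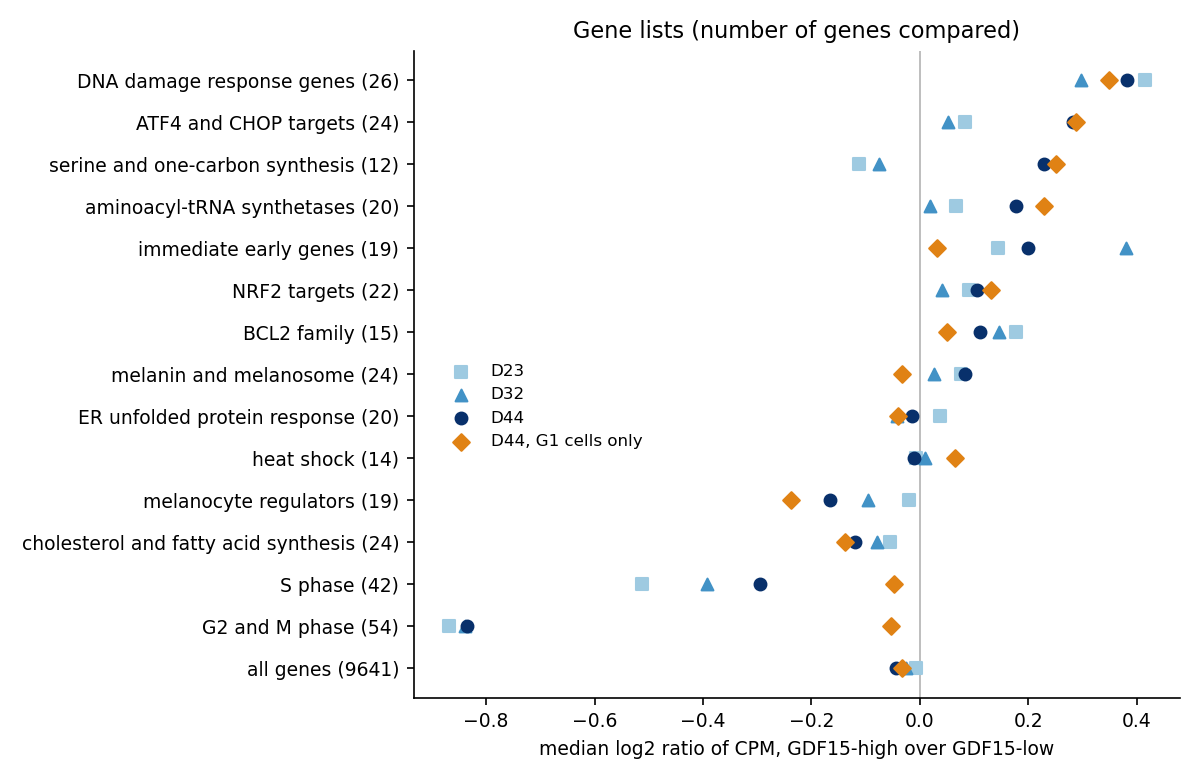
Median log2 ratio of CPM in GDF15-high over GDF15-low cells (x axis) for gene lists down the page, with the number of genes compared in D44 beside each name and 1 mark each for D23, D32, D44 and the G1 cells of D44. The G1 cells were ranked by GDF15 anew. The DNA damage response list is at 0.38 in D44 and the G2 and M phase list at -0.83, and the median over all genes is -0.04.

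Both lists were also read in single members. With each cell thinned to 10000 UMIs, the summed DNA damage response list was above the 90th percentile of GDF15-low cells in 20.8% of 573 GDF15-high cells, against 8.34% of 2865 GDF15-low cells. The summed ATF4-type lists (ATF4 and CHOP targets, serine synthesis and tRNA synthetases) passed their limit in 21.5% of GDF15-high and 9.14% of GDF15-low cells. Both passed in 5.41% of GDF15-high cells (31) and 0.838% of GDF15-low cells (24), and either in 36.8% of GDF15-high and 16.6% of GDF15-low cells. Most GDF15-high cells therefore passed neither limit. Over the members the sums had a Spearman correlation of 0.05, a weak value in sparse counts that is given as a description. A CDKN1A UMI was left in 38.2% of GDF15-high and 18.1% of GDF15-low cells after thinning.

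The partners of GDF15 itself were little measured. GFRAL had 0 UMIs in both groups of all 3 libraries, which allows up to 3 UMIs in each group, and RET had 2 UMIs in GDF15-high and 15 in GDF15-low cells of D44. FURIN, a protease that cuts precursors of this family, had 16.6 CPM in GDF15-high and 15.1 CPM in GDF15-low cells. Of 6 genes of maturation and receptors measured in D44 none lay past 1.5-fold, and of 9 tested in D23 and D32 edgeR called 1 lower, TGFBR2, a TGF-β receptor, with 28.5 CPM in GDF15-high and 37.8 CPM in GDF15-low cells of D44 (adjusted p = 0.0160, DESeq2 adjusted p = 0.999).

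Beside CDKN1A, CEBPB and MDM2, the highest genes of at least 20 CPM were of several kinds. CCND1, cyclin D1 of the G1 phase, was the one at the highest level: it had 571 CPM in GDF15-high and 338 CPM in GDF15-low cells in D44 and 709 CPM in GDF15-high and 543 CPM in GDF15-low cells of D23, and 631 CPM in GDF15-high and 371 CPM in GDF15-low cells of D32, and rose by edgeR (log2 0.63, SE 0.0339, adjusted p = 2.75e-72, DESeq2 adjusted p = 0.0142). SLC16A6, a monocarboxylate transporter family member, had 253 CPM in GDF15-high and 140.1 CPM in GDF15-low cells and 43.1 CPM in GDF15-high and 22.3 CPM in GDF15-low cells of D23, and 96.1 CPM in GDF15-high and 49.2 CPM in GDF15-low cells of D32 (edgeR log2 0.98, adjusted p = 1.60e-44). Both genes were higher in GDF15-high cells in all 3 libraries. RAB33A, a small GTPase, had 64.8 CPM in GDF15-high and 32.6 CPM in GDF15-low cells and rose (edgeR adjusted p = 4.90e-35). DDIT4L, an inhibitor of mTORC1 signalling, had 43.04 CPM in GDF15-high and 21.01 CPM in GDF15-low cells and rose (edgeR adjusted p = 2.48e-12), as did JAG1, a Notch ligand, at 31.1 CPM in GDF15-high and 18.4 CPM in GDF15-low cells (edgeR adjusted p = 1.46e-15). IER3, an immediate early gene, had 73.2 CPM in GDF15-high and 44.6 CPM in GDF15-low cells (edgeR adjusted p = 1.93e-05, DESeq2 adjusted p = 0.293). NEFL, a neurofilament chain, had 113 CPM in GDF15-high and 65.97 CPM in GDF15-low cells in D44 and 51.3 CPM in GDF15-high and 55.8 CPM in GDF15-low cells of D23, and 76.2 CPM in GDF15-high and 55.04 CPM in GDF15-low cells of D32 (edgeR adjusted p = 8.54e-06, DESeq2 adjusted p = 0.817). The ratio of NEFL pointed the other way in D23.

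For 4 of these 15 genes edgeR did not pass the threshold in the earlier libraries. LINC00520, a long noncoding RNA, had 33.97 CPM in GDF15-high and 17.2 CPM in GDF15-low cells (edgeR adjusted p = 0.131), and THBS2, a matrix protein, 29.3 CPM in GDF15-high and 17.5 CPM in GDF15-low cells (edgeR adjusted p = 0.136). AVPI1 had 85.9 CPM in GDF15-high and 51.1 CPM in GDF15-low cells (edgeR adjusted p = 0.0658), and HRK, a BH3-only protein, had 48.4 CPM in GDF15-high and 27.7 CPM in GDF15-low cells (edgeR adjusted p = 0.336). VGF, a neuropeptide precursor, had 35.8 CPM in GDF15-high and 18.5 CPM in GDF15-low cells and passed (edgeR adjusted p = 0.00344, DESeq2 adjusted p = 0.441), but in D44 10 cells held 70.1% of the VGF UMIs of the members. That value rests on few cells, as does MMP1, a collagenase chosen after its value was seen. It had 20.9 CPM in GDF15-high and 4.65 CPM in GDF15-low cells, and its 572 UMIs lay in 25 members (4.36%), with 95.6% in 10 cells.

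**Figure D3:**
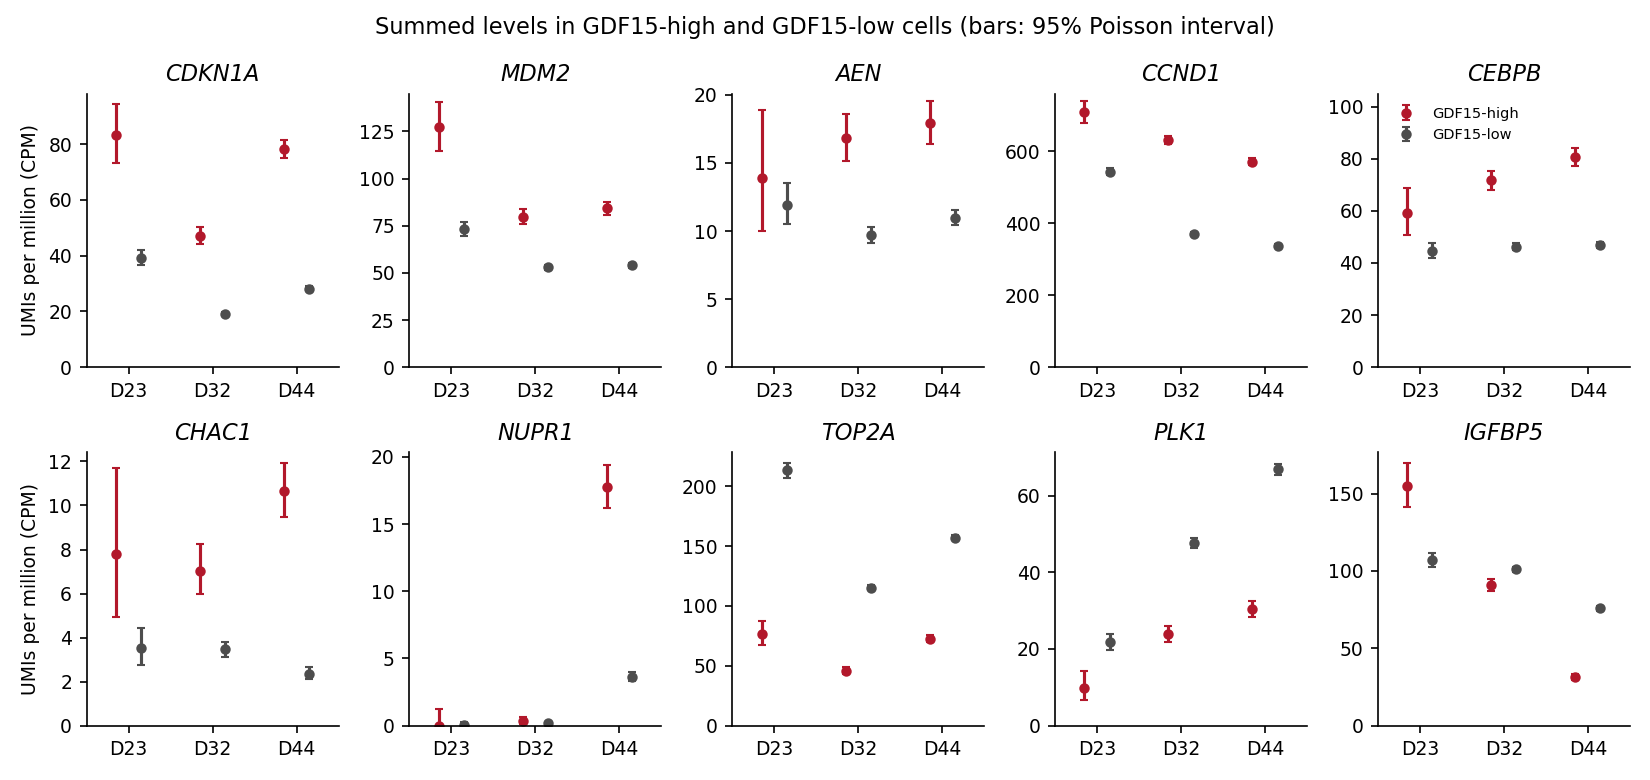
CPM of named genes (y axis, from 0) in GDF15-high and GDF15-low cells of D23, D32 and D44 (x axis), with exact Poisson 95% intervals that cover counting error only. CDKN1A, MDM2, CCND1, CEBPB and CHAC1 are higher in GDF15-high cells in all 3 libraries, TOP2A and PLK1 are lower, NUPR1 is near 0 before D44, and IGFBP5 is higher in D23 and lower in D32 and D44.

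Genes that signalling switches on within minutes to hours were higher in part. Of 19 immediate early genes measured in D44, 3 lay past 1.5-fold, with a median log2 of 0.20 in all cells and of 0.03 in G1 cells, and in D23 and D32 edgeR called 10 of 24 higher and none lower (DESeq2 4). FOSL1, an AP-1 subunit, had 20.6 CPM in GDF15-high and 12.9 CPM in GDF15-low cells and rose (edgeR log2 1.03, adjusted p = 6.43e-11). NR4A1, an orphan nuclear receptor, had 37.8 CPM in GDF15-high and 24.4 CPM in GDF15-low cells (edgeR adjusted p = 3.33e-12), and its relative NR4A3, chosen after its value was seen, had 18.9 CPM in GDF15-high and 8.89 CPM in GDF15-low cells (edgeR adjusted p = 6.17e-12). MYC had 159.7 CPM in GDF15-high and 115 CPM in GDF15-low cells and DUSP4, a phosphatase that turns off ERK, had 172 CPM in GDF15-high and 126 CPM in GDF15-low cells, and both rose (edgeR adjusted p = 1.37e-24 and 2.15e-24). FOS went against these in D44, at 68.3 CPM in GDF15-high and 86.98 CPM in GDF15-low cells, and had 26.5 CPM in GDF15-high and 27.2 CPM in GDF15-low cells of D23, and 70.7 CPM in GDF15-high and 60.3 CPM in GDF15-low cells of D32. EPHA2, an ephrin receptor, had 10.6 CPM in GDF15-high and 5.47 CPM in GDF15-low cells (edgeR adjusted p = 2.10e-07), and PHLDA2 had 576 CPM in GDF15-high and 381 CPM in GDF15-low cells (edgeR adjusted p = 1.47e-36). Both were chosen after their values were seen. Of 8 NF-κB and cytokine genes 1 lay past 1.5-fold: TNFAIP3, an NF-κB inhibitor, had 11.3 CPM in GDF15-high and 5.56 CPM in GDF15-low cells (edgeR adjusted p = 0.00394, DESeq2 adjusted p = 0.435).

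Oxidative stress genes, the targets of NRF2, gave 2 of 22 genes past 1.5-fold in D44 and 5 of 23 higher by edgeR with 1 lower. The 2 were OSGIN1, an oxidative stress-induced growth inhibitor, at 34.3 CPM in GDF15-high and 22.8 CPM in GDF15-low cells (edgeR adjusted p = 0.00397, DESeq2 adjusted p = 0.971), and SLC7A11, described above. HMOX1, heme oxygenase, had 19.3 CPM in GDF15-high and 15.6 CPM in GDF15-low cells and rose by edgeR (log2 0.48, adjusted p = 8.57e-09). FTL, the light chain of ferritin, had 7949.8 CPM in GDF15-high and 7005 CPM in GDF15-low cells, and SQSTM1, an autophagy receptor from the autophagy list, had 302 CPM in GDF15-high and 238 CPM in GDF15-low cells, and both rose (edgeR adjusted p = 1.79e-13 and 6.31e-09). Their folds were small beside that of CDKN1A. Among the BCL2 family 3 of 15 lay past 1.5-fold, the 2 named above (BBC3 and HRK) and BCL2A1, an anti-apoptotic MITF target, with 22.02 CPM in GDF15-high and 14.4 CPM in GDF15-low cells and 0.340 CPM in GDF15-high and 0.238 CPM in GDF15-low cells of D23, and 10.3 CPM in GDF15-high and 3.99 CPM in GDF15-low cells of D32 (edgeR adjusted p = 3.96e-11, no adjusted p from DESeq2). BIK, another BH3-only protein, had 8.37 CPM in GDF15-high and 7.76 CPM in GDF15-low cells in D44 and 36.7 CPM in GDF15-high and 27.98 CPM in GDF15-low cells of D23, and 44.1 CPM in GDF15-high and 28.3 CPM in GDF15-low cells of D32 (edgeR adjusted p = 1.72e-15). The level of BCL2A1 differed between days, and D23 held almost none.

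Fewer GDF15-high than GDF15-low cells were called in S or G2/M phase, and genes of division were lower. The share in G1, called from lists of S and G2/M genes with each cell thinned to 5000 UMIs, was 64.5% in GDF15-high cells of D44 (exact binomial 95% interval 60.4% to 68.4%, counting error only) and 51.2% in GDF15-low cells. It was 78.1% in GDF15-high and 60.5% in GDF15-low cells of D23, and 69.2% in GDF15-high and 52.6% in GDF15-low cells of D32. In D44 24.2% of GDF15-high and 34.96% of GDF15-low cells were in G2/M, and 11.3% of GDF15-high and 13.9% of GDF15-low cells in S phase. Of 54 G2 and M phase genes measured in D44, 40 were lower past 1.5-fold and none higher, with a median log2 of -0.83, and edgeR called 52 of 54 lower in D23 and D32 (DESeq2 44). Of 42 S phase genes none lay past 1.5-fold in D44, with a median of -0.29, and edgeR called 34 of 43 lower (DESeq2 10). Among the 15 lowest genes of D44, 10 stood in these lists, and 14 of the 15 fell by edgeR.

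TOP2A, the topoisomerase of dividing cells, had 72.6 CPM in GDF15-high and 157 CPM in GDF15-low cells in D44 and 76.8 CPM in GDF15-high and 213 CPM in GDF15-low cells of D23, and 45.8 CPM in GDF15-high and 115 CPM in GDF15-low cells of D32, and fell by edgeR (log2 -1.35, adjusted p = 1.65e-126). ASPM, a spindle pole protein, had 52.6 CPM in GDF15-high and 126 CPM in GDF15-low cells (edgeR adjusted p = 4.94e-73), and PLK1, a mitotic kinase, 30.5 CPM in GDF15-high and 66.8 CPM in GDF15-low cells (edgeR adjusted p = 1.55e-30). UBE2C, a ubiquitin carrier of the anaphase complex, had 116 CPM in GDF15-high and 247 CPM in GDF15-low cells, AURKA, Aurora kinase A, had 30.02 CPM in GDF15-high and 63.5 CPM in GDF15-low cells, and CENPA, the centromere histone, had 35.3 CPM in GDF15-high and 74.5 CPM in GDF15-low cells. Each of these 6 genes was lower in GDF15-high cells, and GDF15-low cells had 2.11 to 2.41 times their level. The other division genes among the 15 lowest (CDCA8, SGO2, CENPE, DLGAP5, TTK, HMMR, DEPDC1 and GTSE1), most of them spindle or kinetochore proteins, had D44 log2 ratios of -1.17 to -0.97. Phase calls use the S and G2/M lists, so G1 cells lack high levels of listed genes such as TOP2A, UBE2C, AURKA and CENPA by construction; ASPM and PLK1 are in neither list. In G1 cells, ranked by GDF15 anew, the G2 and M phase list had a median log2 of -0.05 in D44. There PLK1, UBE2C and CENPA turned to 0.39, 0.08 and 0.33, while ASPM, AURKA and TOP2A stayed below 0, at -0.58, -0.21 and -0.16. Levels in these G1 cells were low. PLK1 had 6.18 CPM in GDF15-high and 4.73 CPM in GDF15-low G1 cells, and CENPA 6.04 CPM and 4.80 CPM. The cell cycle element TTTGAA was in a promoter window of 62 of the 117 matched genes lower in D44 (52.99%) and of 33 of the 45 matched G2 and M phase genes (73.3%), against 18.2% of all RefSeq genes and 2 of the 39 matched genes higher in D44 (5.13%). CCAAT was in 83 of the 117 (70.9%), against 39.7% of all and 13 of the 39 (33.3%).

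The genes higher in GDF15-high cells mostly stayed so when G1 cells were ranked by GDF15 anew. That ranking gave 314 GDF15-high and 1570 GDF15-low cells in D44, so these groups are not the members that were in G1. Of the 54 genes 47 remained past 1.5-fold in D44 G1 cells, and 26 passed edgeR in G1 cells of D23 and D32. Over all genes in G1 cells 74 were higher (0.775%) and 96 lower (1.01%) in D44, and edgeR called 137 higher (1.02%) and 62 lower (0.463%). CDKN1A had a log2 of 1.39 in D44 G1 cells. Of the 140 lower genes 28 remained past 1.5-fold, and 5 passed edgeR in G1 cells.

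Cell cycle inhibitors beside CDKN1A went both ways, and senescence genes were mixed. CDKN2A, which makes p16, had 10.8 CPM in GDF15-high and 5.43 CPM in GDF15-low cells in D44 and 0.340 CPM in GDF15-high and 0.0476 CPM in GDF15-low cells of D23, and 0.327 CPM in GDF15-high and 0.238 CPM in GDF15-low cells of D32, so it was at or near 0 in the earlier libraries and was not tested. CDKN2C, p18, had 4.10 CPM in GDF15-high and 10.5 CPM in GDF15-low cells (edgeR adjusted p = 0.0665), and CDKN1B 30.5 CPM in GDF15-high and 37.6 CPM in GDF15-low cells (edgeR adjusted p = 0.00679, DESeq2 adjusted p = 0.999). LMNB1, a nuclear lamina gene, had 20.96 CPM in GDF15-high and 33.8 CPM in GDF15-low cells and fell (edgeR log2 -0.78, adjusted p = 1.21e-14). In D44 G1 cells CDKN2C and LMNB1 turned to 0.08 and 0.10 in log2, and CDKN2C was near 0 there, at 1.73 CPM in GDF15-high and 1.63 CPM in GDF15-low cells. IGFBP5, an IGF binding protein, had 31.5 CPM in GDF15-high and 75.7 CPM in GDF15-low cells in D44 (log2 -1.27), 155 CPM in GDF15-high and 107 CPM in GDF15-low cells of D23 and 90.9 CPM in GDF15-high and 101 CPM in GDF15-low cells of D32. The ratio was above 0 in D23 and below 0 in D32 and D44, and edgeR gave an adjusted p of 0.326. IGFBP7 had 151 CPM in GDF15-high and 183 CPM in GDF15-low cells.

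Melanin and melanosome genes differed little. Of 24 genes in D44 2 lay past 1.5-fold, both higher, with a median log2 of 0.08 in all cells and of -0.03 in G1 cells. In D23 and D32 edgeR called 6 higher and 3 lower, and DESeq2 4 and 0. PMEL, the fibril protein, had 4845 CPM in GDF15-high and 4886 CPM in GDF15-low cells (edgeR adjusted p = 0.774), and TYRP1 had 2221 CPM in GDF15-high and 1954 CPM in GDF15-low cells and rose by a log2 of 0.22 (edgeR adjusted p = 7.04e-08). TYR, the first enzyme of melanin synthesis, had 347 CPM in GDF15-high and 336 CPM in GDF15-low cells in D44 and 44.8 CPM in GDF15-high and 48.8 CPM in GDF15-low cells of D23, and 219 CPM in GDF15-high and 251 CPM in GDF15-low cells of D32 (edgeR log2 -0.17, adjusted p = 0.0147, DESeq2 adjusted p = 0.999). DCT, another enzyme of melanin synthesis, had 1875 CPM in GDF15-high and 2148 CPM in GDF15-low cells. DCT had 915 CPM in GDF15-high and 964 CPM in GDF15-low cells of D23. In D32 it had 1192 CPM in GDF15-high and 1556 CPM in GDF15-low cells, and it fell (edgeR log2 -0.23, adjusted p = 4.94e-11, DESeq2 adjusted p = 0.999). The genes past 1.5-fold were SLC7A11 and QPCT, glutaminyl cyclase, at 202 CPM in GDF15-high and 132 CPM in GDF15-low cells (edgeR adjusted p = 1.70e-13). The median pigment level, of which the rule had used the sum, was 107 per 10000 in GDF15-high and 105 in GDF15-low cells.

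Regulators of the melanocyte line were on the lower side. Over all genes 3634 of 9641 had a log2 ratio above 0 in D44, with a median of -0.04. Of 19 regulators measured in D44 none lay past 1.5-fold and 2 were above 0, with a median log2 of -0.17. In D23 and D32 edgeR called 1 of 23 higher and 6 lower (DESeq2 0 and 1). MITF had 347 CPM in GDF15-high and 338 CPM in GDF15-low cells (edgeR adjusted p = 0.769), and SOX10 106 CPM in GDF15-high and 109 CPM in GDF15-low cells (edgeR adjusted p = 0.804). FOXD3, a neural crest factor that holds back MITF, had 34.6 CPM in GDF15-high and 49.7 CPM in GDF15-low cells and 19.7 CPM in GDF15-high and 31.4 CPM in GDF15-low cells of D23, and 22.7 CPM in GDF15-high and 34.8 CPM in GDF15-low cells of D32, and fell (edgeR log2 -0.60, adjusted p = 2.93e-12). SOX2 had 6.91 CPM in GDF15-high and 10.1 CPM in GDF15-low cells and TFAP2B 25.01 CPM in GDF15-high and 30.6 CPM in GDF15-low cells (edgeR adjusted p = 1.52e-04 for SOX2, with no adjusted p from DESeq2, and 2.27e-06, DESeq2 adjusted p = 0.0706 for TFAP2B). NR2F1, a crest factor chosen after its value was seen, had 11.2 CPM in GDF15-high and 22.9 CPM in GDF15-low cells (log2 -1.03) and 197 CPM in GDF15-high and 269 CPM in GDF15-low cells of D23, and 15.4 CPM in GDF15-high and 23.8 CPM in GDF15-low cells of D32, and fell (edgeR adjusted p = 1.81e-14). In all 3 libraries FOXD3 was lower in GDF15-high cells.

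Along the whole range of GDF15, cut into 10 equal groups of D44 kept cells, some of these genes were graded and others were not. Group 1 and most of group 2 had no GDF15 UMI, so the step between these groups, counted among the 9 steps below, mostly splits tied cells. CDKN1A had 25.6 CPM in the lowest group and 78.2 in the highest, and CCND1 had 313 CPM and 571. RAB33A was higher at each of the 9 steps, at 27.4 CPM in the lowest and 64.9 in the highest group. TOP2A had 166 CPM in the lowest and 72.7 in the highest group, and the share of cells in G2/M was 33.8% in the lowest and 24.3% in the highest. MDM2 was higher at 5 of the 9 steps, THBS2 at 4 and IER3 at 3, and IER3 had 52.1 CPM in the lowest group, 38.3 in group 5 and 73.2 in the highest. VGF was not graded either, with 23.01 CPM in the lowest group, 12.9 in group 7 and 35.9 in the highest. These groups come from the same ranking that chose the members, so the course is a description.

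**Figure D4:**
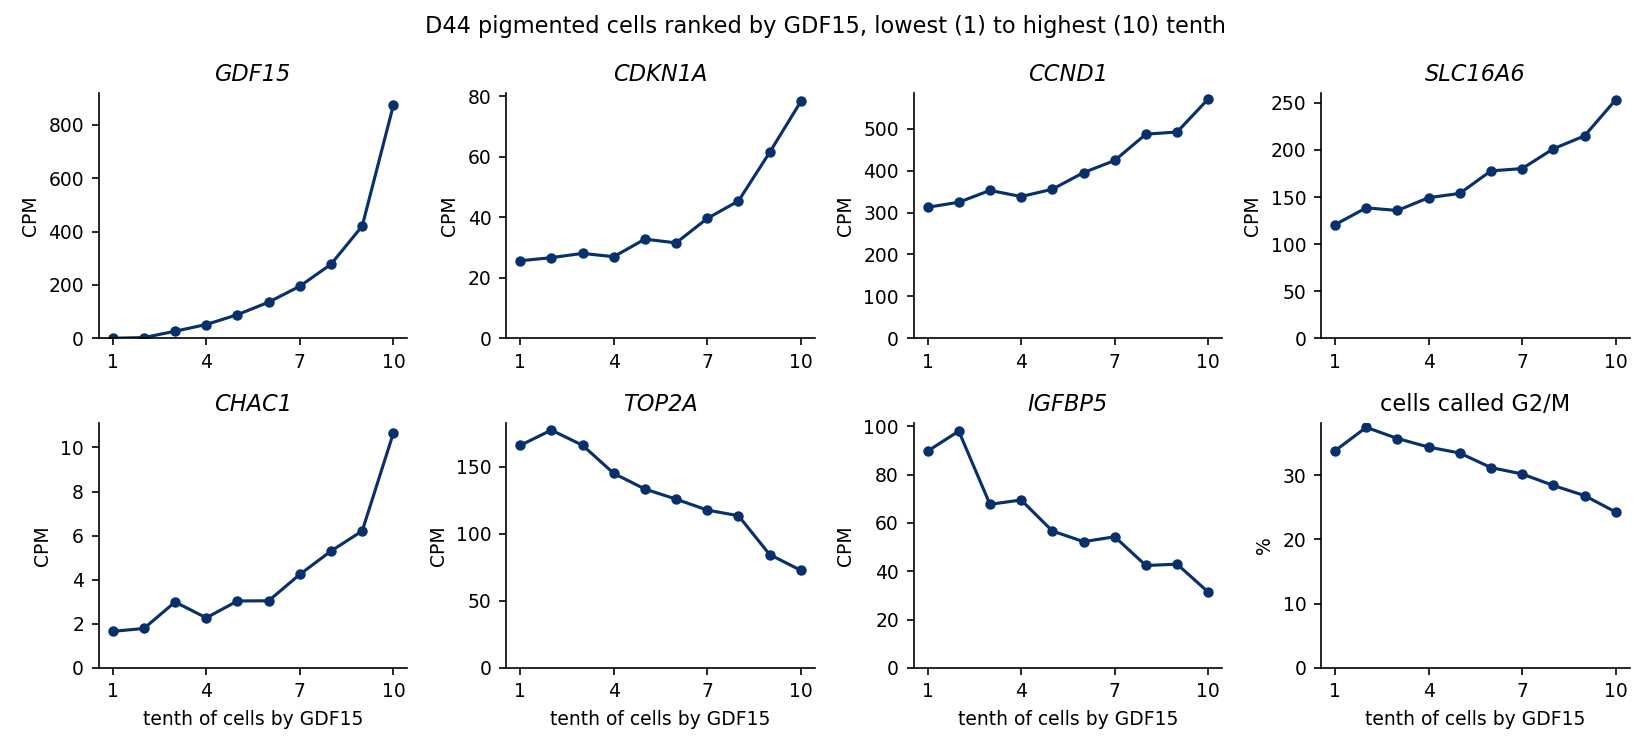
Levels of GDF15, CDKN1A, CCND1, SLC16A6, CHAC1, TOP2A and IGFBP5 in CPM and the percent of cells called G2/M (y axes, from 0) in 10 equal groups of D44 kept cells ranked by GDF15 (x axis, low to high). CDKN1A stands at 25.6 CPM in the lowest group and 78.2 in the highest, and TOP2A at 166 and 72.7.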

How the data were processed

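The authors deposited UMI counts per gene and barcode for each of 3 libraries, made per the labels with Cell Ranger 6.1.2 on GRCh38 (hg38) and not normalized. The libraries held 5585, 8927 and 8010 barcodes and 53298735, 268339312 and 280879346 UMIs for D23, D32 and D44. Kept cells had 3000 to 9000 genes, under 100000 UMIs, a mitochondrial share under 10% and at least 10 pigment UMIs per 10000 (2098, 5618 and 5737 cells). Doublets were called with Scrublet and kept, except under an alternative. Counts were summed per library and group and scaled to CPM. D44 folds were read at 1.5-fold among genes with a mean of at least 5 CPM, and intervals and limits cover counting error only. The main test was edgeR 4.0.16 (quasi-likelihood, TMM, filterByExpr, the library as a term, common dispersion 0.000822) with Benjamini-Hochberg adjustment at 0.05 over all 14561 genes, and DESeq2 1.42.0 was an alternative. GDF15-high and GDF15-low cells of 1 library were cultured and sequenced together, which is why the library pairs the sums. On simulated counts for D23 and D32 (14561 genes, 200 changed), edgeR recovered 82.8% of genes changed by a log2 of 1 and 71.9% at 0.58, with 6 false calls. All genes were simulated with the common dispersion that the test had estimated. The simulation therefore cannot show how many false calls arise where the spread differs between genes.

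The members, the gene lists and the tests were chosen with earlier results of these data known, and 1 gene is not reported here and was left out of the lists. Named genes were GDF15, the 15 highest and 15 lowest in D44 of at least 20 CPM, and list members past 1.5-fold or called by edgeR, with up to 4 others a list. MMP1, NR4A3, EPHA2, PHLDA2, TXNIP, NR2F1 and TSC22D1 were chosen after their values were seen. Phases were called with scanpy 1.11.5 on cells thinned to 5000 UMIs. Positions come from GENCODE 44 and promoters from RefSeq on GRCh38.p14, where 39 of 54 genes higher and 117 of 140 lower in D44 had an entry. Motifs were searched on both strands of windows of 300 bases (TGATGNAA for ATF4, TTTGAA for the cell cycle, and CCAAT). Alternatives covered the share of cells taken, the comparison group, depth, phase, doublets, pigment and mitochondrial limits, scaling and the library left out. Python 3.11.15, numpy 2.4.6, scipy 1.17.1, pandas 2.3.3, matplotlib 3.10.9, R 4.3.3 and limma 3.58.1 were used.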

Additional observations from a re-analysis of the deposited data

Results flagged for a closer look

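IGFBP5 was lower in GDF15-high than in GDF15-low cells of D44, at a log2 ratio of -1.27, and higher in D23, at 0.53. FOS was lower in D44, at -0.35, and higher in D32, at 0.23. TYR stood at 0.05 in D44 and -0.20 in D32, MITF at 0.04 in D44 and -0.10 in D32, and PMEL at -0.01 in D44 and 0.0894 in D23. These 5 genes had opposite directions in 2 libraries, and the difference was not tested.

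GDF15 was also seen in D44 barcodes that had been left out. It had 134 CPM in the 75 cells with fewer pigment UMIs, 172 CPM in the 558 barcodes with a mitochondrial share of 10% or more, and 96.0 CPM in the 1552 barcodes with under 3000 genes, against 213 CPM in kept cells. Those levels are above the limit that a count of 0 allows, and their source was not tested.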

How the results depend on the processing

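In D44 the count of genes higher past 1.5-fold, 54, was 29 with the highest 20% of cells, 33 against all other kept cells, 24 with a mean of at least 20 CPM and 2034 with no limit on CPM. The count of lower genes, 140, was 79 against all other kept cells, 213 after thinning to 10000 UMIs, 70 at 20 CPM and 1699 with no limit on CPM. Under edgeR the 386 higher and 488 lower genes became 67 and 122 with DESeq2, 818 and 751 with all 3 libraries, 40 and 78 after thinning to 5000 UMIs, and 137 and 62 in G1 cells, and 214 genes were higher with no filter on low counts. Leaving out 1 library and using D44 in its place gave 322 to 899 higher and 411 to 900 lower genes. Without the library as a replicate block 0 genes were higher and 0 lower, with 78 at an unadjusted p under 0.05. In D44 G1 cells PLK1 (0.39), UBE2C (0.0785), CENPA (0.33), DLGAP5 (0.12), TTK (0.16), HMMR (0.13), DEPDC1 (0.53), GTSE1 (0.41), CDKN2C (0.0803) and LMNB1 (0.10) turned from below to above 0 in log2. In G1 cells under edgeR CDCA8 (0.0203), PLK1 (0.83), CENPE (0.10), CENPA (0.47), DLGAP5 (0.46), HMMR (0.32), DEPDC1 (0.32) and GTSE1 (0.58) did so, and FOS turned to -0.0238. None of these passed edgeR in G1 cells, where the adjusted p was 0.0530 for PLK1, 0.255 for DLGAP5 and higher for the others. G1 cells are called with the S and G2/M lists, which hold UBE2C, CENPA, DLGAP5, TTK, HMMR, GTSE1, CDCA8 and CENPE. PLK1, DEPDC1, CDKN2C, LMNB1 and FOS are not in them, and the cause was not tested. With all 3 libraries SLC7A11 turned to 0.33 and FOS to -0.0233. Without D23 IGFBP5 was -0.62, SLC7A11 0.37, ATF4 0.20, PSAT1 0.21, FOS -0.0312 and TYR -0.0344, and without D32 IGFBP5 was -0.48, SLC7A11 0.51, ATF4 0.33, PSAT1 0.32, FOS -0.25 and TYR 0.0541. Thinned to 5000 UMIs FOS was -0.0629 and TXNIP 0.0068. The causes of these last changes were not tested. The alternatives without doublets and matched on depth under edgeR were chosen after seeing the data and gave 376 and 325 higher and 513 and 418 lower genes. Over named genes and edgeR alternatives 1105 values were on the same side of the threshold, 186 were no longer past it, 41 newly passed it and 24 changed sign. Over the D44 alternatives 620 values were counted as the same, 360 as moved and 10 as changed in sign. D23, with 210 GDF15-high cells, limits the depth of the test.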

Other observations

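Other pathways were measured, with few genes past 1.5-fold. Over all genes 0.560% were higher and 1.45% lower past that fold in D44. In D23 and D32 edgeR called 2.65% of all genes higher and 3.35% lower. Counts near these shares say little about a list. Over all genes 3634 of 9641 had a log2 ratio above 0 in D44, with a median of -0.04. Of 19 glycolysis genes none lay past 1.5-fold in D44, with 17 above 0 and a median log2 of 0.12, and edgeR called 2 of 20 higher in D23 and D32. Of 24 cholesterol and fatty acid synthesis genes none lay past 1.5-fold, with 1 above 0 and a median of -0.12, and edgeR called none higher and 1 lower. Of 11 hypoxia genes 1 lay past 1.5-fold, ANKRD37, at 13.2 CPM in GDF15-high and 8.69 CPM in GDF15-low cells. None of 9 interferon response genes and none of 31 lysosome genes lay past 1.5-fold, and neither did any of 75 nuclear subunits of oxidative phosphorylation, 13 mitochondrially encoded genes or 83 ribosomal protein genes, where edgeR called 0 of 17 interferon, 2 of 33 lysosome, 1 of 75 nuclear subunit, 0 of 13 mitochondrially encoded and 2 of 83 ribosomal protein genes higher.

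Of 19 cytoskeleton and invasion genes 1 lay past 1.5-fold in D44: ACTA2, smooth muscle actin, at 7.31 CPM in GDF15-high and 3.53 CPM in GDF15-low cells, which rose in D23 and D32 (edgeR adjusted p = 6.09e-04, no adjusted p from DESeq2). In that list edgeR called 7 of 22 higher and 3 lower. SPP1, osteopontin, had 240.3 CPM in GDF15-high and 169 CPM in GDF15-low cells, and LGALS3, galectin 3, had 5183 CPM in GDF15-high and 3965 CPM in GDF15-low cells (edgeR adjusted p = 2.28e-12 and 5.65e-05). SLC30A1, a zinc exporter in the metallothionein list, had 23.6 CPM in GDF15-high and 15.4 CPM in GDF15-low cells. TXNIP, an inhibitor of thioredoxin, had 14.3 CPM in GDF15-high and 27.6 CPM in GDF15-low cells, and TSC22D1 had 38.1 CPM in GDF15-high and 61.6 CPM in GDF15-low cells, both chosen after their values were seen (edgeR adjusted p = 0.0214, DESeq2 adjusted p = 0.999 for TXNIP and 6.23e-13 for TSC22D1).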
